A study of Mus musculus with 8 samples.

Results

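The synaptonemal complex and the chromosome axis that it forms on were followed through 10 genes: *Sycp1*, *Sycp2*, *Sycp3*, *Syce1*, *Syce2*, *Syce3*, *Tex12*, *Hormad1*, *Hormad2* and *Trip13*. They were chosen by name, for the known place of their proteins in the complex or on the axis. The rule uses no measured value, although earlier results of these data were known when it was set. All 10 were among the 40840 genes listed in the count tables, and all 10 passed the filter on low counts that left 19104 genes for testing. Whole testes were used for RNAseq from 8 independent mice on a C57BL/6J background, 4 per genotype (wild type and *Tra2b-cPEko*), killed at postnatal day 12 (P12), when the first wave of germ cells has entered meiotic prophase. The wild type mice carried 1 floxed allele of the *Tra2b* poison exon (PE) and no *Cre* (*Tra2bPE* fl/+). The *Tra2b-cPEko* mice carried 1 floxed and 1 deleted allele together with the *Vasa-Cre* transgene (fl/-;*Vasa-Cre*), which is active in germ cells from embryonic life onwards, so their somatic cells still had the PE on 1 allele. The comparison addressed whether loss of the PE in germ cells was accompanied by altered mRNA levels of the genes that build the meiotic chromosome.

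In meiotic prophase each chromosome is folded into loops on a protein axis, and the axes of homologous chromosomes are then zipped together by the synaptonemal complex. SYCP2 and SYCP3 make the axis, which becomes the lateral element of the complex, SYCP1 spans the gap as the transverse filament, and SYCE1, SYCE2, SYCE3 and TEX12 form the central element along the midline. HORMAD1 and HORMAD2 coat axes that are not yet synapsed and carry the checkpoint on unsynapsed chromatin, and TRIP13 is the ATPase that takes HORMA proteins off the axis once synapsis has occurred. Loss of *Sycp1*, *Sycp3*, *Syce1*, *Syce2*, *Syce3*, *Tex12* or *Hormad1* is known to block male meiosis in mice.

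Many germline genes are held silent in somatic cells by a Polycomb complex that contains E2F6 and the E-box binding pair MGA and MAX, so the promoters of the 10 genes were searched for the letters these factors recognise. Promoters of 300 bases, 250 before and 50 after each RefSeq start, came from a RefSeq table of GRCm38.p6 and were placed on GRCm39 by an exact match; it held 13 promoters for the 10 genes. The E2F6-type motif GCGGGAA, searched on both strands, was found in *Sycp3*, *Syce2*, *Tex12* and *Hormad1*, which is 4 of 10 genes, against 5.29% of the 27025 genes in the table. The E-box CACGTG was found in the same 4 genes and in *Sycp1*, against 8.09% of genes in the table. Both motifs stood together in 4 of the 10 genes and in 139 of the 27025, or 0.514%. The sequences that follow are shown because they carry these matches. Each is the stretch within 160 bases upstream of the RefSeq start that lies before every GENCODE exon of its gene, read 5′ to 3′ on the strand of the gene, with the E2F6-type and E-box matches in capitals. They are, in order, GRCm39 chr10:88295289-88295430 on the plus strand, chr9:50472632-50472728 on the minus strand, chr3:95466828-95466937 on the plus strand and chr3:102843456-102843576 on the minus strand.
Sycp3: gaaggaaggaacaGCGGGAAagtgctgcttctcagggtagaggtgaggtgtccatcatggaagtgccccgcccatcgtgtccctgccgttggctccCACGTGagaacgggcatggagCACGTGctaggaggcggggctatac
Tex12: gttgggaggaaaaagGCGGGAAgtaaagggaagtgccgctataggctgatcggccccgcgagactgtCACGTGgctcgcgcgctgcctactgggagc
Hormad1: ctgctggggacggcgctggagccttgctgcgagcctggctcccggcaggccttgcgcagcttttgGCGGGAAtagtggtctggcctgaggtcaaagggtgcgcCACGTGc
Sycp1: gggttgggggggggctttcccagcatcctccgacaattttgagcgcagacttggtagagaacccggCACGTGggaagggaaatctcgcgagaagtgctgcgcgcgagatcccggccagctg

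In *Sycp3* the E2F6-type match began 147 bases before the start, followed by E-boxes at 64 and 43 bases. *Tex12* had the same order, with the E2F6-type match at 145 bases and 1 E-box at 93. *Hormad1* had the E2F6-type match at 95 bases and E-boxes at 57 and 20, the last of which lies in bases that GENCODE counts as exon and is not printed. *Syce2* held an E-box at 88 bases and an E2F6-type match at 34 bases before the second of its RefSeq starts. Of the 160 bases upstream of that start, 147 are exonic in GENCODE, so this stretch is not shown. *Sycp1* had the E-box alone, at 94 bases.

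Of 3 further motifs, the STRA8-type CNCCTCAG was present in *Sycp1*, *Syce2*, *Tex12* and *Hormad2*, 4 of 10 genes against 9.12% of all genes, and in *Syce2* it overlaps the E2F6-type match. The MYB-type AACNGNC was present in 6 of 10 genes against 36% of all genes, and the CRE TGACGTCA in 0 of 10 against 2.03%. The promoters of the 10 genes were also rich in G and C, with a median of 61.7% against 52.7% over all 32851 promoters, and a median CpG content of 0.704 of that expected from base composition against 0.384. These matches describe letters in the windows, and no binding was measured in these libraries.

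**Figure D1:**
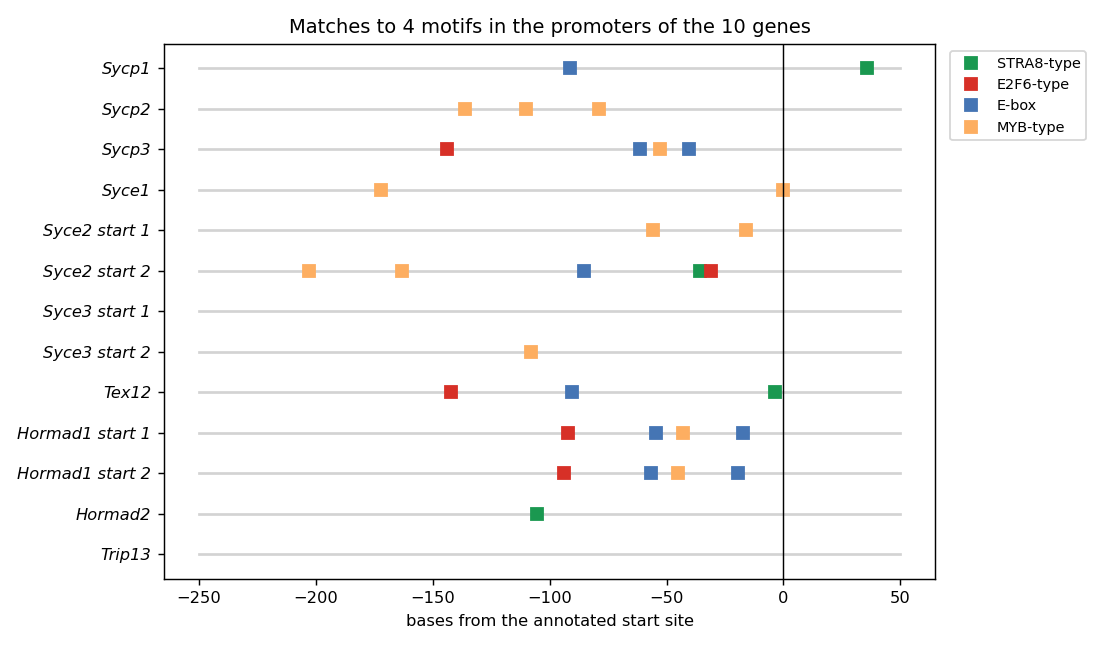
Position of each match to 4 motifs in the 13 RefSeq promoters of the 10 genes, in bases from the annotated start (negative values lie upstream; each grey line is a promoter of 300 bases). The E2F6-type and E-box motifs stand together upstream of *Sycp3*, *Syce2* start 2, *Tex12* and both starts of *Hormad1*, while *Trip13* and *Syce3* start 1 hold none of the 4.

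The libraries held from 36757386 to 59101569 reads on genes, which was 66.4% to 69.0% of the reads in the tables, and the 10 genes had between 538 (*Syce3*) and 18727 (*Sycp2*) reads in a library. Levels are given as CPM, a gene's reads scaled to the library total with TMM factors. A difference between genotypes is given as a log2 fold change of *Tra2b-cPEko* against wild type with its standard error (SE) from edgeR's quasi-likelihood test, and a gene is called where its Benjamini-Hochberg adjusted p over the 19104 genes is under 0.05. Counts per gene cannot show whether the PE was removed, but they give the overall level of the targeted gene. *Tra2b* had 164 ± 8.93 CPM in wild type and 198 ± 8.49 CPM in *Tra2b-cPEko* mice (mean ± SD, n = 4 each), without overlap between the groups (log2 fold change 0.27, adjusted p = 0.0552 by edgeR, 0.000195 by DESeq2). Its paralogue *Tra2a* fell in *Tra2b-cPEko* testes, by 0.89 on the log2 scale (SE 0.08, adjusted p = 0.00231 by edgeR). The germ cell gene *Dazl* stood at a mean of 653 CPM over the 8 mice, and Sertoli cell markers summed to between 5667 and 6558 CPM, so the libraries hold RNA of both germ and somatic cells.

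None of the 10 genes was called between the genotypes, by edgeR or by DESeq2, against a background of 0.157% of tested genes called by edgeR (30 of 19104; 0.0262% lower and 0.131% higher) and 2.79% by DESeq2 (507 of 18149). The smallest adjusted p among them was 0.165 (*Syce2*, edgeR). At an unadjusted p under 0.05, 3 of the 10 were lower in *Tra2b-cPEko* testes by edgeR, against 7.07% of all genes in that direction, and these were the central element genes *Syce1*, *Syce2* and *Tex12*. This count was 6 without wild type mouse C, where *Sycp2*, *Hormad2* and *Trip13* joined them, and 2, *Syce1* and *Syce2*, without wild type mouse A or B or without *Tra2b-cPEko* mouse A, C or D. The share of all genes at this unadjusted level was not counted in those fits. Over all genes, the edgeR fits without a mouse called between 3 and 84, with 84 without wild type mouse C. The log2 fold change was below 0 for 9 of 10 genes, against 50.3% of all genes, with a median of -0.13 against -0.001 over all genes. The groups did not overlap for *Syce2* and *Trip13*, both lower in *Tra2b-cPEko* mice, against 8.54% of all genes without overlap in either direction, 4.18% lower and 4.36% higher. For 9 of the 10 genes the 95% interval of the log2 fold change lay within -0.5 and 0.5, as it did for 69.8% of all genes, and *Tex12* was the exception. In whole testes, fewer cells of a type and less RNA per cell cannot be told apart.

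**Figure D2:**
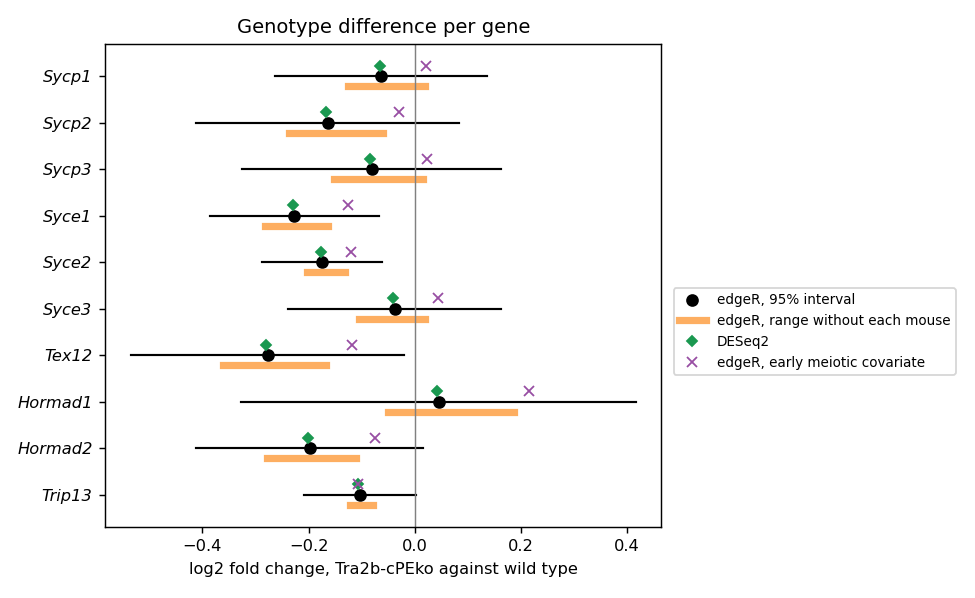
Log2 fold change of *Tra2b-cPEko* against wild type for each of the 10 genes (x axis; black points and lines, edgeR estimate and 95% interval; orange bars, range of the estimates when each of the 8 mice is left out in turn; green diamonds, DESeq2; purple crosses, edgeR with the mean of the early meiotic genes as a covariate). Intervals of *Syce1*, *Syce2* and *Tex12* lie below 0, *Hormad1* is the single gene with a main estimate above 0, and the widest interval is that of *Hormad1*, from -0.33 to 0.42.

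The 3 genes with an unadjusted p under 0.05 belong to the central element. *Syce2*, whose protein assembles with TEX12 into the fibres of the central element, had 93.6, 86.7, 81.1 and 82.2 CPM in wild type mice A to D and 77.6, 78.3, 72.4 and 76.2 CPM in *Tra2b-cPEko* mice A to D. Every *Tra2b-cPEko* mouse was below every wild type mouse. The means were 85.9 ± 5.70 and 76.1 ± 2.64 CPM (SD, n = 4 each), a log2 fold change of -0.17 (SE 0.05, 95% interval -0.29 to -0.06) with an adjusted p of 0.165 by edgeR and 0.0673 by DESeq2. An exact permutation test of the 8 log2 CPM values, two-sided, gave p = 0.0286, the smallest p that the 70 arrangements of 8 mice allow.

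*Syce1*, which encodes a central element protein that binds SYCE3, had 79.0, 72.6, 62.0 and 65.6 CPM in wild type and 59.4, 64.7, 58.2 and 56.1 CPM in *Tra2b-cPEko* mice. Only *Tra2b-cPEko* mouse B, above wild type mouse C, broke the separation. The log2 fold change was -0.23 (SE 0.07, 95% interval -0.39 to -0.07, adjusted p = 0.192 by edgeR and 0.0976 by DESeq2). *Tex12* had 32.6, 28.3, 22.03 and 23.7 CPM in wild type and 21.5, 24.6, 20.1 and 21.8 CPM in *Tra2b-cPEko* mice. Wild type mice A and B stood above all others, and the other 2 wild type mice lay among the *Tra2b-cPEko* values. Its log2 fold change, -0.28 (SE 0.12, 95% interval -0.54 to -0.02), was the lowest of the 10 genes, with an adjusted p of 0.299 by edgeR and 0.194 by DESeq2. The fourth gene of the central element, *Syce3*, whose product recruits the others to SYCP1, had a fold change nearer to 0. It ranged from 14.2 to 18.6 CPM in wild type and from 14.7 to 16.8 CPM in *Tra2b-cPEko* mice, a log2 fold change of -0.04 (SE 0.09, adjusted p = 0.883 by edgeR).

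Leaving out 1 library brought some central element genes past the threshold with DESeq2, fits that were added after the data were seen. Without wild type mouse C it called *Syce1* (log2 fold change -0.28, adjusted p = 0.00887), *Syce2* (-0.20, adjusted p = 0.0213) and *Tex12* (-0.36, adjusted p = 0.0262), and without *Tra2b-cPEko* mouse B it called *Syce1* (-0.27, adjusted p = 0.0492). Counted over genes with any reads, before DESeq2's own filter, these fits called 1025 of 31190 and 540 of 31184 genes. With all 8 mice it called 507 of 31426. In the 6 other such DESeq2 fits, and in all 8 edgeR fits without a mouse, 0 of the 10 genes were called.

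The transverse filament gene *Sycp1* had 368, 327, 274 and 288 CPM in wild type mice A to D and 294, 273, 319 and 318 CPM in *Tra2b-cPEko* mice A to D. The *Tra2b-cPEko* values lay within the wild type range, apart from mouse B, which was just below it. The log2 fold change was -0.06 (SE 0.09, 95% interval -0.26 to 0.14, adjusted p = 0.778 by edgeR).

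Of the lateral element genes, *Sycp2* had 424, 377, 297 and 300.3 CPM in wild type and 322, 297, 318 and 311 CPM in *Tra2b-cPEko* mice. Wild type mice A and B were again above all the rest, and the 6 other mice differed little. The log2 fold change was -0.16 (SE 0.11, 95% interval -0.41 to 0.08, adjusted p = 0.510 by edgeR). *Sycp3*, the gene whose protein is the usual cytological marker of the axis, had 257, 227, 190.3 and 184 CPM in wild type and 209.7, 180.0, 214 and 208 CPM in *Tra2b-cPEko* mice, and again wild type A and B were the highest. Its log2 fold change was -0.08 (SE 0.11, 95% interval -0.33 to 0.16, adjusted p = 0.759 by edgeR). *Sycp3* shares 661 bases, 48.5% of its exon bases, with exons of *Chpt1* on the opposite strand, which had between 2359 and 4110 reads per library, and the strand setting of the counting was not stated in the sources used here. The same limit holds for *Syce2*, which shares 337 bases (13.3%) with *Gcdh* (1256 to 1986 reads). It also holds for *Trip13*, which shares 161 bases (2.91%) with *Brd9* (2625 to 4301 reads).

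The HORMA domain genes of the axis had fold changes of opposite sign, neither of them called. *Hormad1* had 161, 136, 99.99 and 104 CPM in wild type mice, the widest spread of the group, with a coefficient of variation (CV) of 23.0%. In *Tra2b-cPEko* mice it had 132, 114, 136 and 134 CPM, all within the wild type range. It was the single gene of the 10 with a fold change above 0 (log2 fold change 0.05, SE 0.16, 95% interval -0.33 to 0.42, adjusted p = 0.922 by edgeR). *Hormad2* had 30.9, 28.4, 21.8 and 23.7 CPM in wild type and 23.1, 21.8, 24.1 and 22.3 CPM in *Tra2b-cPEko* mice. As with the axis genes, wild type A and B alone stood above the others, and the log2 fold change was -0.20 (SE 0.10, 95% interval -0.41 to 0.02, adjusted p = 0.362 by edgeR). A pseudogene, *Gm15529*, matches *Hormad1* at 97.9% identity over 994 bases and is not listed in the count tables, so how its reads were counted is unknown.

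*Trip13*, the remodeller of HORMA proteins, had the narrowest range of the 10 genes, with the highest of the 8 mice 1.19 times the lowest. It had 45.7, 45.7, 45.8 and 49.2 CPM in wild type and 44.1, 45.02, 41.5 and 43.0 CPM in *Tra2b-cPEko* mice. The groups did not overlap, although the highest *Tra2b-cPEko* mouse was within 1 CPM of the lowest wild type mouse. The log2 fold change was -0.10 (SE 0.05, 95% interval -0.21 to 0.00, adjusted p = 0.334 by edgeR, two-sided exact permutation p = 0.0286). Unlike most genes of the group, *Trip13* is also known to act in dividing somatic cells, at the spindle checkpoint.

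**Figure D3:**
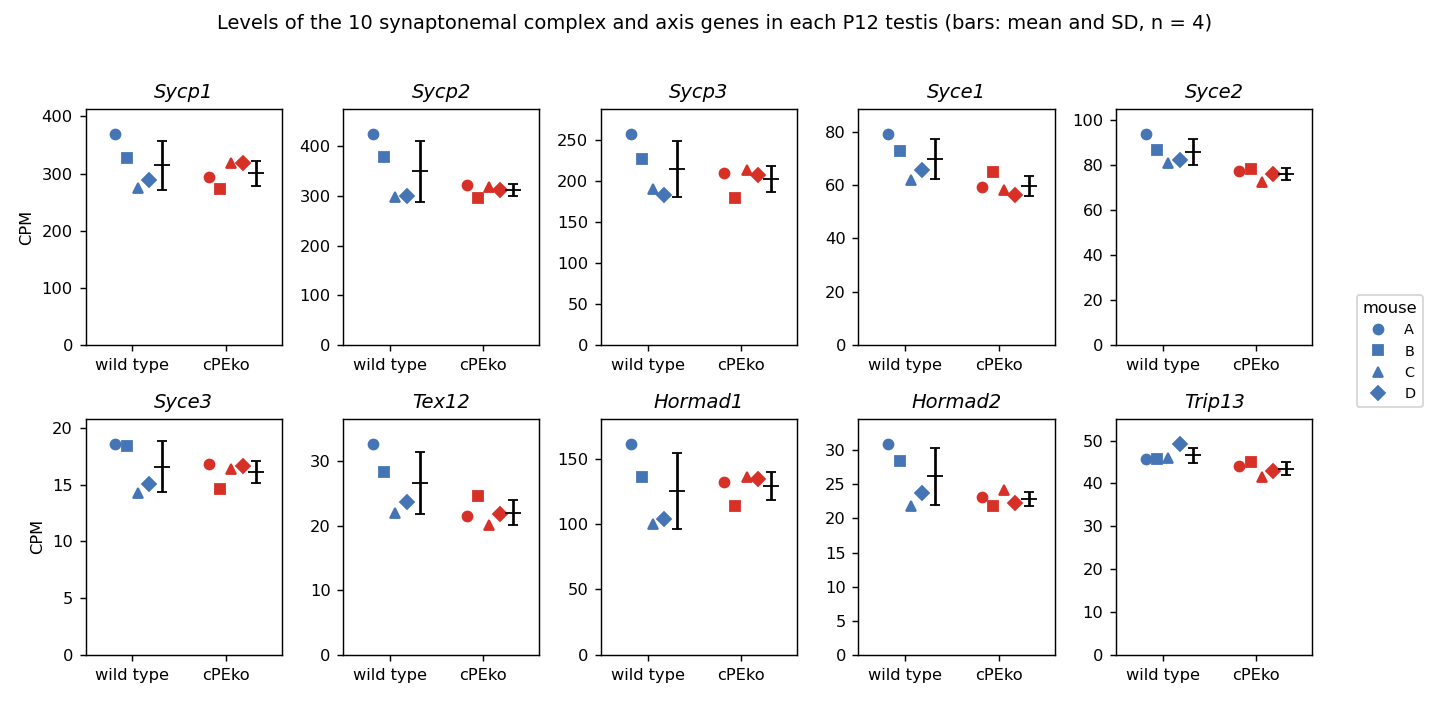
CPM of each of the 10 genes in each mouse (y axes, from 0; symbols mark mice A to D; blue, wild type; red, *Tra2b-cPEko*; black bars, mean and SD of 4 mice). Wild type mice A and B lie above the 6 other mice for 8 of the 10 genes, the *Tra2b-cPEko* mice lie close together, and *Trip13* is nearly level in all mice.

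The levels also differed among mice of the wild type group. Wild type mouse A was the highest of the 8 mice for 9 of the 10 genes, against 15.1% of all tested genes, and *Trip13* was the exception. Wild type mice A and B were both above all 6 other mice for 8 genes, against 12.7% of all genes; the exceptions were *Trip13* and *Hormad1*, for which wild type B lay just below *Tra2b-cPEko* mouse C. The CV was larger among wild type than among *Tra2b-cPEko* mice for all 10 genes, against 62.1% of all genes, and ranged from 3.69% (*Trip13*) to 23.0% (*Hormad1*) in wild type and from 3.46% (*Syce2*) to 8.69% (*Tex12*) in *Tra2b-cPEko* mice. Summed over the 10 genes, the level was between 1109 and 1511 CPM in wild type and between 1112 and 1220 CPM in *Tra2b-cPEko* mice, so the *Tra2b-cPEko* sums all lay inside the wild type range.

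Most of the 10 genes varied together across mice. Over the 45 pairs of genes, Pearson's r of log2 CPM across the 8 mice had a median of 0.77, from -0.47 (*Hormad1* and *Trip13*) to 0.97, and 41 pairs were above 0. With the genotype means removed the median was 0.76 and the range -0.66 to 0.98. Correlation with the mean standardized level of all 10 genes was 0.98 for *Sycp2* and for *Hormad2*, 0.73 for *Hormad1* and 0.20 for *Trip13*. Each gene is itself part of that mean, which raises its r. With genotype means removed, r was 0.98 for *Sycp2*, 0.97 for *Hormad2*, 0.96 for *Hormad1* and -0.34 for *Trip13*. These are descriptions over 8 libraries that share their depth and cell mixture, and they rest on a few mice to differing degrees. The 2 mice farthest from the median were wild type A and B. Without them r was 0.71 for *Syce3*, 0.70 for *Hormad2*, 0.60 for *Sycp2*, 0.54 for *Sycp1*, 0.46 for *Hormad1* and 0.41 for *Sycp3*. It was 0.07 for *Trip13*, -0.11 for *Syce2*, -0.18 for *Tex12* and -0.22 for *Syce1*.

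Some marker lists of germ cells moved with these values and others did not. Against the average of the 8 mice, the mean log2 level of 6 general germ cell genes was 0.11, 0.09, -0.03 and -0.02 in wild type A to D. In *Tra2b-cPEko* A to D it was -0.05, -0.09, -0.007 and -0.002, lowest in B like the mean of the 10 genes. The mean log2 level of 11 undifferentiated spermatogonia genes went the other way in wild type mice. Against the average of the 8 mice it was -0.06, -0.03, 0.09 and 0.12 in wild type A to D. Among *Tra2b-cPEko* mice the early meiotic list was highest in B (0.04), where the mean of the 10 genes was lowest (-0.10). The mean of 10 pachytene genes, such as *Piwil1* and *Ldhc*, was 0.48 above the average of the 8 mice in wild type A and B on the log2 scale. It was -0.32 and -0.18 in wild type C and D. In *Tra2b-cPEko* A to D it was -0.10, -0.33, 0.06 and -0.09, again lowest in B. The summed level of these pachytene genes was 191 to 378 CPM in wild type and 216 to 277 CPM in *Tra2b-cPEko* mice. The 3 other genes of the list, *Adam3*, *Pgk2* and *Acrv1*, had at most 15 reads in a library and were not tested. The 16 early meiotic genes, such as *Dmc1* and *Spo11*, summed to 1863 to 2388 CPM in wild type and 1801 to 2133 CPM in *Tra2b-cPEko* mice. Their mean was 0.26 above average in wild type A, 0.08 above in wild type B and between -0.15 and 0.04 in the other mice. In a fit with this mean as a covariate, *Syce1* had a log2 fold change of -0.12 (unadjusted p = 0.0159, adjusted p = 0.365 by edgeR) and *Syce2* of -0.12 (unadjusted p = 0.0219, adjusted p = 0.399). *Tex12* had -0.12 (unadjusted p = 0.126, adjusted p = 0.588) and *Hormad1* 0.22 (unadjusted p = 0.135, adjusted p = 0.596). In the same fit *Sycp1*, *Sycp3* and *Syce3* turned to 0.02, 0.02 and 0.04, and 6 of the 10 genes stayed below 0, with a median of -0.05. Without wild type mouse A, 6 of the 10 were below 0 as well, with a median of -0.09.

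The mean of the differentiating spermatogonia markers did not overlap between the genotypes. All 9 had log2 fold changes below 0, against 50.3% of all genes, with a summed level of 860 to 903 CPM in wild type and 702 to 811 CPM in *Tra2b-cPEko* mice, and 1 of them, *Sohlh1*, was called lower (-0.34, adjusted p = 0.0341 by edgeR), against 0.0262% of all genes. Sertoli cell markers summed to 5667 to 6227 CPM in wild type and 5802 to 6558 CPM in *Tra2b-cPEko* mice. The summed level of the macrophage markers was higher in every *Tra2b-cPEko* mouse (125 to 153 CPM) than in any wild type mouse (104 to 124 CPM). Taken singly, 0 of the 7 markers were higher without overlap, against 4.36% of all genes. All 7 had log2 fold changes above 0, against 9489 of the 19104 genes tested. Of these markers, 4 had an unadjusted p under 0.05 (edgeR), against 8.22% of all genes in that direction. None was called by edgeR, and DESeq2 called 1 higher, against 301 of the 19104 genes in that direction. Leydig cell markers had a median log2 fold change of 0.40, with sums of 588 to 634 CPM in wild type and 599 to 830 CPM in *Tra2b-cPEko* mice. Of these 7 markers, 5 were above 0, against the same 9489 of 19104 genes, and none was called by edgeR. DESeq2 called *Lhcgr* higher (0.46, adjusted p = 0.00851), against the same 301 of 19104 genes. Of the 7 peritubular and stromal markers 6 were above 0, again against 9489 of 19104 genes. Of these, 2 had an unadjusted p under 0.05 (edgeR), against the same 8.22%, and none was called. All 6 endothelial markers were above 0, against the same share of all genes, none of them with an unadjusted p under 0.05 (edgeR). The fit with the early meiotic covariate cannot tell the cell mixture from a genotype difference that meiotic genes share. Of its 16 genes, 14 had log2 fold changes below 0, against 50.3% of all genes, with a median of -0.10. The part of the cell mixture in the levels of the 10 genes was not tested.

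**Figure D4:**
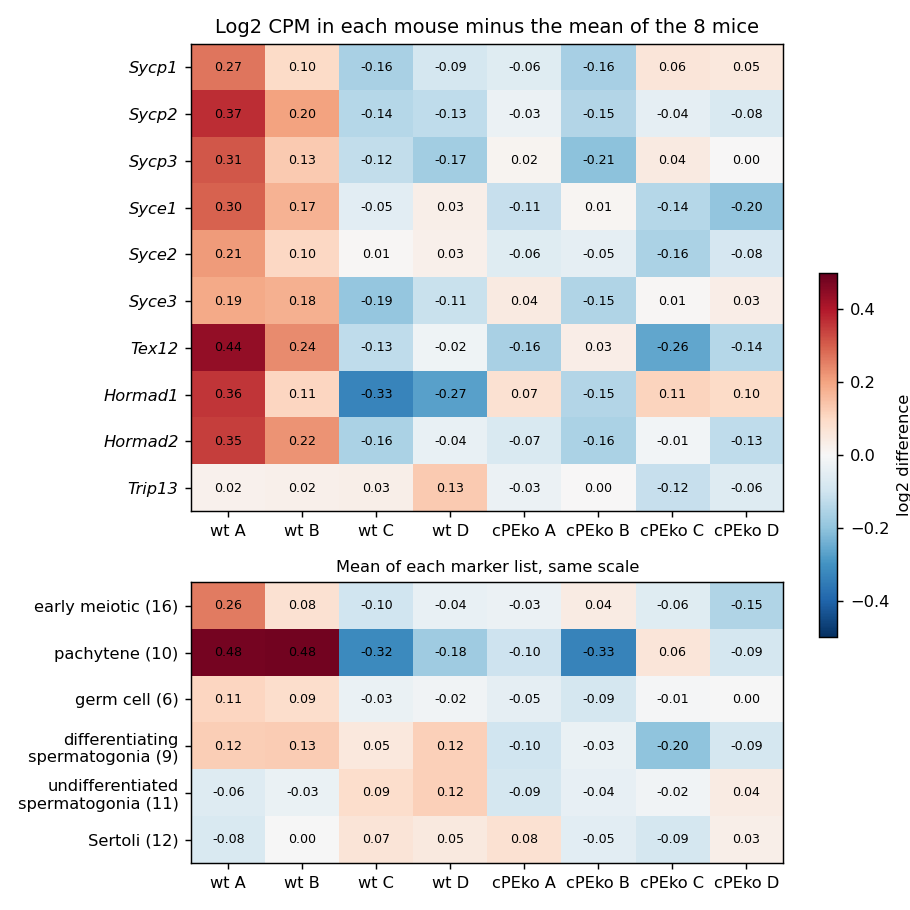
Log2 CPM of each gene (upper panel) and mean of each marker list (lower panel, number of genes in parentheses) in each mouse, minus the mean of the 8 mice; colour and printed number are the same log2 difference. Wild type A and B are red for most of the 10 genes and for the pachytene list, at 0.48 each, while the differentiating spermatogonia list is positive in all 4 wild type and negative in all 4 *Tra2b-cPEko* mice.

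Ratios between the genes within a mouse remove the library scaling, but not variation that the genes follow to different degrees. Among wild type mice A to D, the log2 ratio of *Trip13* to *Hormad1* was -1.82, -1.57, -1.13 and -1.08. Of 8 ratios that were compared, 2 did not overlap between genotypes. Both had *Hormad1* above the line, so they are not separate observations, and the share over other pairs of genes was not counted. The log2 ratio of *Hormad1* to *Hormad2* counts was 2.38, 2.26, 2.196 and 2.13 in wild type mice A to D and 2.52, 2.38, 2.49 and 2.59 in *Tra2b-cPEko* mice A to D. The lowest *Tra2b-cPEko* mouse was only just above the highest wild type mouse. The difference was 0.26 (two-sided exact permutation p = 0.0286, adjusted p = 0.114 over the 8 ratios).

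The log2 ratio of *Hormad1* to *Sycp3* was -0.68, -0.75, -0.93 and -0.82 in wild type and -0.66, -0.66, -0.65 and -0.63 in *Tra2b-cPEko* mice. Here too the lowest *Tra2b-cPEko* mouse (-0.665) was only just above the highest wild type mouse (-0.675). The *Tra2b-cPEko* mice differed from each other by far less than the wild type mice did. The difference was 0.14 (two-sided exact permutation p = 0.0286, adjusted p = 0.114). The 6 other ratios overlapped, with differences of 0.02 for *Sycp1* to *Sycp3*, -0.08 for *Sycp2* to *Sycp3*, -0.17 for *Syce1* to *Sycp1*, 0.09 for *Syce2* to *Tex12*, 0.02 for *Syce3* to *Sycp1* and -0.17 for *Trip13* to *Hormad1*, and exact permutation p between 0.114 and 0.657. No ratio passed an adjusted p of 0.05, and with 4 mice against 4 the smallest exact p, 0.0286, could pass it only if more of the 8 had reached it.

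**Figure D5:**
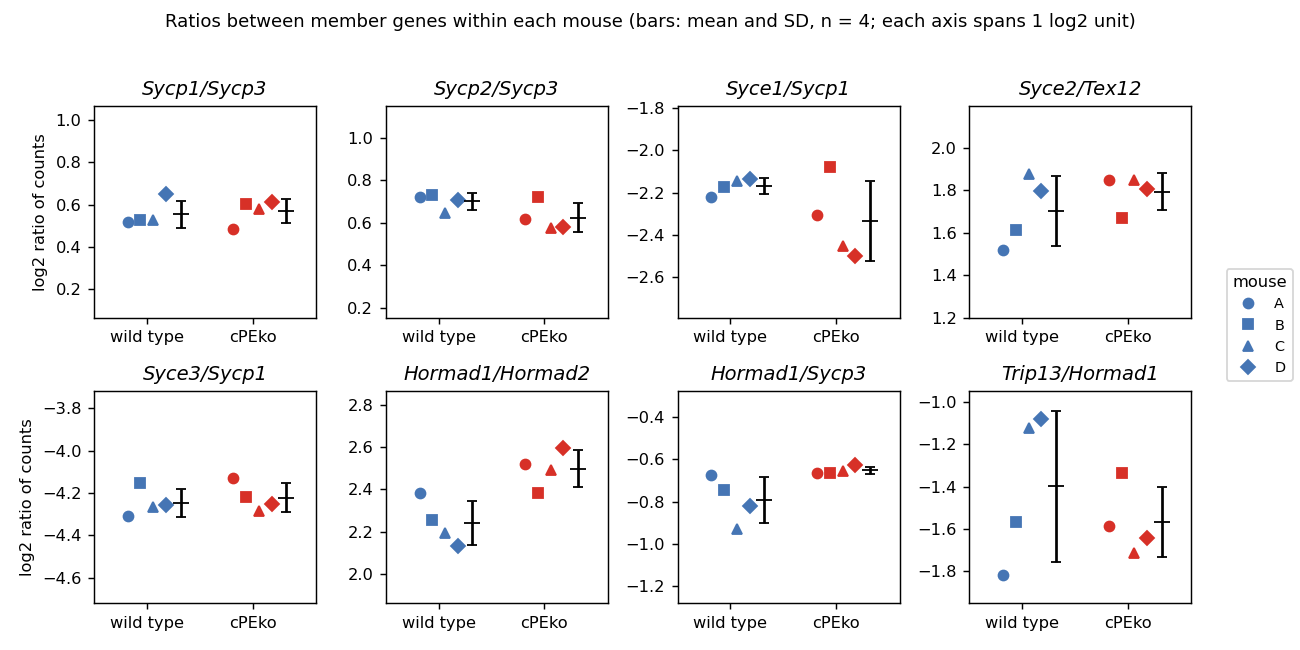
Log2 ratio of counts between pairs of the 10 genes in each mouse (y axes, each spanning 1 log2 unit; symbols mark mice A to D; blue, wild type; red, *Tra2b-cPEko*; black bars, mean and SD of 4 mice). *Hormad1/Hormad2* and *Hormad1/Sycp3* are higher in every *Tra2b-cPEko* mouse than in any wild type mouse, and the other 6 ratios overlap.

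Levels per length, CPM divided by the kilobases covered by the exons of each gene in GENCODE on GRCm39, put the structural genes of the axis first. *Sycp3* (chromosome 10, 88295431 to 88309099) had a mean of 153 CPM per kb over the 8 mice, from 132 to 189, and did not overlap with the next gene. *Sycp2* (chromosome 2, 177987076 to 178049478) had 55.4, *Sycp1* (chromosome 3, 102725709 to 102843455) 48.9, *Syce1* (chromosome 7, 140356873 to 140367820) 36.3, *Syce2* (chromosome 8, 85598740 to 85614853) 32.04 and *Hormad1* (chromosome 3, 95466938 to 95495179) 31.7 CPM per kb. From *Sycp2* to *Hormad1*, each gene overlapped with its neighbour in this order over the 8 mice. The lower levels were those of *Syce3* (chromosome 15, 89274366 to 89299966) with 12.4 and *Tex12* (chromosome 9, 50467058 to 50472631) with 11.4 CPM per kb, which overlapped with each other, then *Trip13* (chromosome 13, 74059466 to 74086074) with 8.14 and *Hormad2* (chromosome 11, 4295737 to 4391216) with 3.62, each apart from its neighbours. The order depends on the exons that the annotation counts, and *Hormad2* has 6.775 kb of them. The study names NCBI annotation, so counts and lengths may rest on different exons. The level of *Sycp3* also carries the limit given above, since 48.5% of its exon bases are shared with *Chpt1* and the strand setting is unknown. Within the genotypes *Syce2* and *Hormad1* changed places, with 34.0 and 31.2 CPM per kb in wild type and 30.1 and 32.2 CPM per kb in *Tra2b-cPEko* mice.

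A further 34 genes that work with the complex were followed in 5 lists: cohesins of the axis, break-forming factors on the axis, factors bound to the synaptonemal complex, the checkpoint of the unsynapsed axis and telomere attachment. Of these, 33 were tested and *H2ax* was listed at 0 in all libraries. No gene was called by edgeR in either direction. At an unadjusted p under 0.05, 9 of 33 were lower, against 7.07% of all genes, and 2 were higher, against 8.22%. The log2 fold change was below 0 for 25 of 33, against 50.3% of all genes, with a median of -0.10, and 4 genes were lower without overlap, against 4.18% of all genes. DESeq2 called 3, all lower, against 1.14% of all genes in that direction.

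In each list, the gene with the smallest p was lower in *Tra2b-cPEko* testes without passing edgeR's threshold. *Stag3*, a cohesin subunit specific to meiosis, had 377 ± 44.4 CPM in wild type and 305 ± 26.0 CPM in *Tra2b-cPEko* mice (SD, n = 4 each; log2 fold change -0.30, adjusted p = 0.159 by edgeR and 0.0256 by DESeq2). *Mei1*, needed for meiotic double-strand breaks, had 52.0 ± 4.81 and 40.5 ± 4.28 CPM, without overlap (-0.36, adjusted p = 0.101 by edgeR and 0.00593 by DESeq2). *Majin*, of the complex that ties telomeres to the nuclear envelope, had 19.6 ± 4.42 and 14.3 ± 1.04 CPM (-0.45, adjusted p = 0.201 by edgeR and 0.0462 by DESeq2). These 3 are the genes that DESeq2 called, and all were among the meiosis genes that the study had picked on these same libraries, so they are no independent evidence of a direction.

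In the 2 remaining lists, *Ccnb1ip1*, which encodes a regulator of crossing over, had 10.9 ± 1.35 and 8.67 ± 0.415 CPM, without overlap (-0.33, adjusted p = 0.148 by edgeR), and *Topbp1*, an activator of the checkpoint kinase ATR, had 249.4 ± 17.96 and 237 ± 7.55 CPM (-0.08, adjusted p = 0.507 by edgeR). Chosen after their values were seen, the other genes without overlap were *Fkbp6* (-0.13) and *Rnf212* (-0.35), whose proteins sit on the synaptonemal complex, and the genes with an unadjusted p under 0.05 in the higher direction were *Msh5* (0.19) and *Terb1* (0.19); none of these 4 was called (edgeR).

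When 12278 genes that averaged 5 CPM or more were compared, those most like the mean standardized level of the 10 genes over the 8 mice were *Cep72* (Pearson's r 0.99), *Tbl2*, *Ube2t*, *Actr10*, *Spdya*, *Dazl* and *Cog6*, the last 6 with r of 0.98. Within genotypes r stayed between 0.97 and 0.99 for these 7 genes. Without the 2 mice farthest from the median, r ranged from 0.42 (*Actr10*) to 0.89 (*Tbl2*). *Dazl* encodes an RNA-binding protein of germ cells, and *Spdya* a CDK2 activator at meiotic telomeres. The genes were picked for this likeness, so the values are a description with no test. The same measure was -0.50 for *Tra2b* and 0.66 for *Tra2a*, with genotype means removed it was -0.07 and 0.72, and without the 2 farthest mice both turned sign, to 0.55 and -0.27.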

How the data were processed

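RNA from whole P12 testes (4 mice of each genotype) was made into libraries with a stranded mRNA kit and sequenced as paired ends of 100 bp. Raw read counts were deposited by the authors as a table for each mouse, with 1 row per gene symbol and 5 summary lines of the form that htseq-count writes; these lines were left out of totals and tests, and the reads outside genes that they hold were 31.0% to 33.6% of all reads. The methods name HISAT2, GRCm39 with NCBI annotation, Salmon and DESeq2, and the submitters' processing notes list HISAT2 2.2.1, SAMtools 1.7.1, HTSeq 2.0.2 and deepTools 3.5.1. Whether the counting used strand is not given in the sources used here. Groups were taken from the labels; libraries of 1 genotype were not copies of each other, with a chi-square per degree of freedom of 5.79 to 17.5 between them.

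The test was edgeR 4.0.16 (R 4.3.3) with TMM normalization, robust quasi-likelihood fits and a model of genotype alone, for genes kept by filterByExpr with a minimum count of 10 and a minimum total of 15. The biological coefficient of variation was 9.56%. Exact permutation tests used log2 CPM (prior count 2) over 70 arrangements, and ratios used normalized counts with 0.5 added. DESeq2 1.42.0, other scaling factors and filters, limma-voom (limma 3.58.1), a replicate block, an early meiotic covariate and fits without each mouse were alternatives. The script was tested on simulated data with 200 changed genes. GENCODE M39 gave positions and exon lengths, BLAST+ 2.17.0 searched for copies, and figures were drawn with matplotlib 3.10.9 in Python 3.11.15. Named genes were the 10 members, *Tra2b* and *Tra2a*, any partner gene called by edgeR, the partner gene with the smallest p in each list, and the 8 most alike genes, of which 1 is not reported here. Members and lists were chosen with earlier results of these data known. Splicing was not analysed here.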

Additional observations from a re-analysis of the deposited data

Results flagged for a closer look

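Each group of 4 mice was searched for a single mouse that stands far from the other 3, by Dixon's ratio of the gap to the whole range at its 95% critical value. Of 36 groups (10 genes and 8 ratios in each genotype), 3 held such a mouse, where chance would give about 1.8. *Hormad1* had 113.5 CPM in *Tra2b-cPEko* mouse B, below the 3 others of its genotype (ratio 0.843). *Trip13* had 49.2 CPM in wild type mouse D, above the 3 others (ratio 0.960). The log2 ratio of *Sycp1* to *Sycp3* was 0.65 in wild type mouse D, above the 3 others (ratio 0.942).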

How the results depend on the processing

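The number of genes called across the whole table depended strongly on the method. Against 30 in the edgeR fit, of which 83.3% were higher, DESeq2 called 507 (59.4% higher), upper-quartile factors 58 (91.4%), no filter on low counts 123 (73.2%), a mean count of at least 50 gave 14 (78.6%), limma-voom 11 (90.9%), no robust estimation 12 (83.3%), the replicate block 67 (77.6%) and the early meiotic covariate 3 (66.7%), while RLE factors gave 30. Without each mouse in turn the count was between 3 and 84 with edgeR, highest without wild type mouse C (61.9% higher), and between 110 and 1025 with DESeq2, again highest without wild type C (49.4% higher). The DESeq2 counts were 214, 213, 1025 and 434 without wild type A to D and 235, 540, 110 and 226 without *Tra2b-cPEko* A to D. The cause was not tested. The number of the 10 genes called was 0 in every one of these settings except DESeq2 without wild type C (3) and without *Tra2b-cPEko* mouse B (1), a range of 0 to 3, and 0 of 8 ratios were called with normalized counts, with raw counts or without any 1 mouse, in a design where a single ratio cannot pass.

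Of 170 values of the 10 genes under these alternatives (other than the DESeq2 fits without a mouse), 160 kept their direction and side of the threshold and 10 turned direction; none of these 10 had been called. With the early meiotic covariate, *Sycp1* went to 0.0217, *Sycp3* to 0.0240 and *Syce3* to 0.0431. *Sycp1* (0.0199), *Sycp3* (0.0154) and *Syce3* (0.0197) also turned without wild type A, *Syce3* without wild type B (0.0167) and without *Tra2b-cPEko* B (0.00218), and *Hormad1* without wild type C (-0.0505) and without wild type D (-0.0380). The ratio of *Syce3* to *Sycp1* turned to -0.00657 without *Tra2b-cPEko* A. In fits without 1 mouse, *Sycp1* ranged from -0.126 to 0.0199, *Sycp3* from -0.153 to 0.0154, *Syce3* from -0.106 to 0.0197, *Hormad1* from -0.0505 to 0.188, *Sycp2* from -0.237 (without wild type C) to -0.0605 (without wild type A), *Tex12* from -0.361 to -0.168 and *Hormad2* from -0.278 to -0.111 (without the same mice), the ratio of *Syce3* to *Sycp1* from -0.00657 to 0.0558 and that of *Trip13* to *Hormad1* from -0.311 (without wild type A) to -0.0649 (without wild type D).

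The letters A to D do not pair the mice: the correlation of same-letter deviations was over 0.1 in 1 of 4 pairs (from -0.14 to 0.12), and 2 of 8 mice correlated best with their own letter. The block changed no call among the 10 genes. The 10 genes had at least 538 reads in every library, so no filter on low counts removed any of them. With 4 mice per genotype, the smallest exact p is 0.0286.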
